A study of Homo sapiens with 24 samples.

Results

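The distal part of the long arm of chromosome 6 (6q) was examined in OG-seq data of HAP1 cells, as 74928 bins of 1 kb that start from 95 Mb to below 170 Mb on GRCh38, out of 2835235 bins in all (2.64 %). It was set beside 33000 bins of proximal 6q that start from 62 Mb to below 95 Mb. The region was chosen by its measured values, because the columns DKO1 and DKO2 of the deposited table were higher there than DKO3 and the other genotypes. Distal against proximal 6q in the DKO columns is therefore a description here and was given no test.

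OG-seq labels 8-oxoguanine (OG) in fragmented DNA with biotin, pulls the labeled fragments down and sequences them beside input DNA, which was not pulled down. HAP1 is a leukemia-derived line whose cells carry mostly 1 copy of each chromosome. Cells of 4 genotypes, grown in the same medium and untreated, were compared, namely WT, MUTYH-/, OGG1-/ and DKO, in which both genes were edited. The labels give each genotype 3 pull-down libraries from 2 clones, so 2 of the 3 are of the same clone. They also mark 1 library of each genotype as replicate 1 and 2 as replicate 2, and those 2 are of different clones. The knockouts are CRISPR-Cas9 indels, and both DKO clones were edited from the same OGG1-/ clone. The 12 columns of the table, 3 per genotype, carry no clone or replicate name and were not tied to either. DKO1 and DKO2 may thus be 2 libraries of 1 clone, or the 2 libraries of replicate 2. Tests over columns treat the 3 of a genotype as separate although 2 share a clone, and their p-values measure the spread between libraries, which may be technical. On chromosomes other than 6, short stretches of high or low reads were shared by columns, 4 of them by MU1 and MU2 without MU3, 1 by DKO1 and DKO2 without DKO3, 1 by OG1, OG2, WT1 and WT2, and 1 by OG3 and all DKO columns. Whether such columns are of 1 clone was not tested. Small edits in OGG1 and MUTYH cannot be checked in bins of this size.

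OGG1 removes OG that is paired with cytosine, and MUTYH removes adenine that was built in opposite OG, so both glycosylases keep OG from becoming a mutation. A count of pulled-down fragments over a region depends on how much OG it carries and also on how much DNA of the region was in the tube, which is why input reads are subtracted. Distal 6q holds genes of the response to oxidative stress, such as FOXO3, SESN1 and SOD2, beside genes of DNA repair and many long genes.

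OG is an oxidized guanine, and 1 of the 5 bins of distal 6q with the highest values holds a motif of 4 runs of G (a G4 motif). It is shown as an example of a G-rich sequence in a bin of high value, and its values are given with those bins. The sequence is written 5′ to 3′ on the plus strand of GRCh38, chr6:167203293-167203375, with the motif in capitals.
G4 motif: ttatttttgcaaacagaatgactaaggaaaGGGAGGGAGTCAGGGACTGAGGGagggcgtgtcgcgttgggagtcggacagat

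The deposited value of a bin is the number of OG reads minus scaled input reads, in units of OG reads. The mean value over distal 6q was 6.48, 6.76 and 7.65 in WT1 to WT3, 8.32, 7.21 and 7.70 in MU1 to MU3, and 8.26, 7.62 and 8.69 in OG1 to OG3. In DKO1, DKO2 and DKO3 it was 9.98, 10.8 and 9.16. All 3 DKO columns were thus above the other 9, but the columns also differ in depth, and divided by each column's own mean over all bins the order changed. On that relative scale, distal 6q lay at 1.2 in DKO1 and 1.17 in DKO2, whereas DKO3 was at 0.924 and the other 9 columns ranged from 0.862 to 0.932. Only DKO1 and DKO2 were above the mean of their own genome.

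The ratio of the mean value in distal 6q to that in proximal 6q was 1.31 in DKO1, 1.54 in DKO2 and 1.15 in DKO3. It was 1.18, 1.16 and 1.19 in WT, 1.29, 1.13 and 1.14 in MUTYH-/ and 1.2, 1.26 and 1.21 in OGG1-/. DKO1 was only slightly above MU1, the highest of the other columns, and DKO3 was inside their range. The mean ± SD of DKO was 1.33 ± 0.195 (n = 3), against 1.18 ± 0.0178 in WT, 1.19 ± 0.0866 in MUTYH-/ and 1.22 ± 0.0341 in OGG1-/ (n = 3 each). The spread of DKO was therefore wider than its distance from any other genotype.

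The values are made of whole reads, which could be solved back from them in all but 8 or fewer bins per column. Distal 6q had 20.2 to 37.9 OG reads per bin in the 9 columns other than DKO and 42.8, 51.9 and 37.9 in DKO1, DKO2 and DKO3. Input reads per bin were 27.5 to 35.1 in the 9 columns, 44.8 in DKO1, 46.2 in DKO2 and 35.3 in DKO3. The same DKO1 and DKO2 columns that were high in the pull-down were therefore high in the input.

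In reads, DKO1 stood further above the mean of the 9 columns other than DKO than in the deposited value, and DKO2 did not. The ratio of distal to proximal 6q in OG reads was 1.31 in DKO1 and 1.36 in DKO2, against 1.07 in DKO3 and 1.08 to 1.11 in the 9 other columns. In input reads it was 1.31 in DKO1 and 1.32 in DKO2, against 1.05 in DKO3 and 1.05 to 1.08 in the others. The spread among the 9 columns was small, with a mean ± SD of 1.099 ± 0.0124 for OG reads and 1.07 ± 0.0120 for input reads. Relative to the mean of those columns, the input ratio was 1.23 in both DKO1 and DKO2 and 0.979 in DKO3, and the OG ratio was 1.2, 1.24 and 0.975. On that scale the ratio of the deposited value was 1.09, 1.29 and 0.966.

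**Figure D1:**
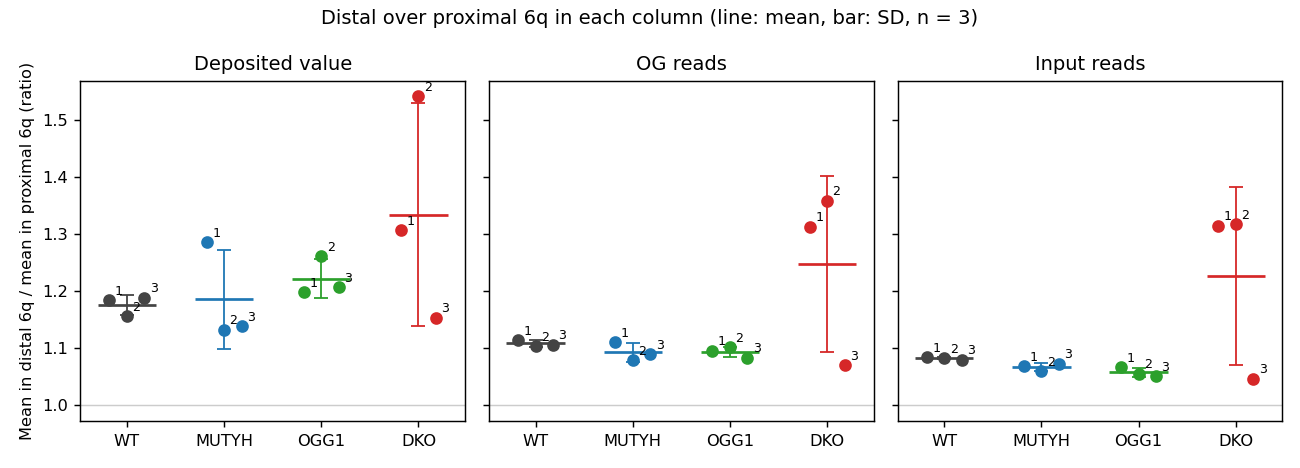
Ratio of distal to proximal 6q in each column (points, numbered by column) for the deposited value, OG reads and input reads, with the mean and SD of 3 columns per genotype on a shared linear axis that does not start at 0. DKO1 and DKO2 lie at 1.31 and 1.54, 1.31 and 1.36, and 1.31 and 1.32 in the 3 panels, whereas DKO3 lies at 1.15, 1.07 and 1.05, near the other genotypes.

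Dividing OG by input reads removed most of the difference. The ratio of distal to proximal 6q in OG reads per input read was 0.9985 in DKO1, 1.03 in DKO2 and 1.02 in DKO3, and 1.02 to 1.04 in the other 9 columns. DKO1 was below their range, whose lowest column was at 1.016 and whose mean ± SD was 1.027 ± 0.00947. The other 2 were in it. The same was seen in windows of 1 Mb, where OG reads over input reads, each relative to the 9 columns, had a median over 75 distal windows of 0.991 in DKO1, 0.998 in DKO2 and 1.00 in DKO3. The other 9 columns had medians from 0.996 to 1.00. OG reads per input read were thus not higher in distal 6q of DKO1 or DKO2, whereas the deposited value, which is a difference of reads, was.

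To locate the rise, reads in 1 Mb windows were divided by what the GC content of the bins predicts from the other chromosomes, and then by the mean of the 9 columns other than DKO. In distal 6q the input reads of DKO1 had a median window of 1.36 and a highest of 1.48, and those of DKO2 of 1.38 and 1.49. DKO3 had 1.01 and 1.08. DKO1 and DKO2 exceeded 1.2 in 65 and 67 of the 75 distal windows and in 0 of the 33 proximal windows. Over all 2816 windows of the genome, 2.38 % in DKO1 and 2.45 % in DKO2 were past that level, and 66 of 67 and 68 of 69 of these were on chromosome 6. Since that contrast chose the region, nothing is read from these counts.

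The rise was graded rather than a step at the boundary of the rule. In 5 Mb windows the input reads of DKO1 and DKO2 stood at 1.06 and 1.06 from 65 to 70 Mb, at 1.12 and 1.13 from 90 to 95 Mb, and at 1.17 and 1.18 from 95 to 100 Mb. They went on to 1.22 and 1.24 from 105 to 110 Mb, 1.33 and 1.36 from 115 to 120 Mb, and 1.43 and 1.46 from 140 to 145 Mb. From there to 170 Mb they stayed between 1.34 and 1.43 in DKO1 and between 1.35 and 1.46 in DKO2. Proximal 6q was therefore not flat either, with a median window of 1.09 in DKO1 and 1.08 in DKO2 beside 1.03 in DKO3. OG reads followed the same course, at 1.17 and 1.18 from 95 to 100 Mb and 1.42 and 1.46 from 140 to 145 Mb.

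Just outside the boundary, at chr6:94500001-95000000, the mean value was 6.09 in DKO1, 5.49 in DKO2 and 6.65 in DKO3, and 3.72 to 6.01 in the other columns. Just inside, at chr6:95000001-95500000, it was 6.24, 6.37 and 6.41, and 4.29 to 6.26 in the others. OG and input reads per bin were lower just inside than just outside in all 12 columns. Input went from 33.5 to 30.3 in DKO1, from 35.3 to 31.8 in DKO2 and from 32.6 to 29.9 in DKO3.

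DKO1 and DKO2 had almost the same profile. Over the 108 windows of 6q their input profiles differed by at most 0.0621, and Pearson's r was 0.994 for input and 0.993 for OG reads. With DKO3 the correlation of input profiles was -0.0845 for DKO1 and -0.0906 for DKO2. These values are descriptions over neighbouring windows of single columns, all divided by the same 9 columns.

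**Figure D2:**
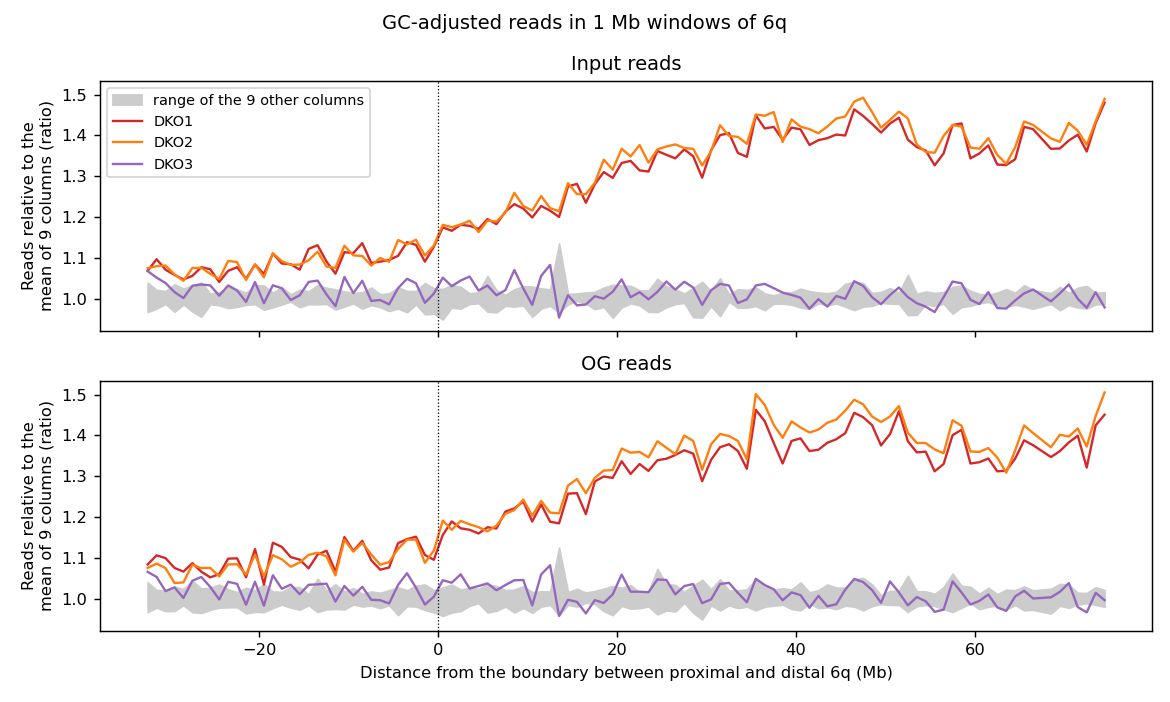
Input (top) and OG reads (bottom) in 1 Mb windows along 6q, adjusted for GC content and relative to the mean of the 9 columns other than DKO, by distance from the boundary between proximal and distal 6q. DKO1 and DKO2 climb together to highest windows of 1.48 and 1.49 in input, and DKO3 stays near 1 with the grey range of the other columns (1 window is not drawn).

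The rise ended sharply near the end of the chromosome, past the last bins of the rule. Relative to their own proximal 6q and to the 9 columns, the reads of DKO1 and DKO2 were at 1.34 and 1.35 from 170.5 to 170.6 Mb and at 1.01 and 0.99 in the next 100 kb. DKO3 was at 0.85 and 0.89 in the same windows. In the last window, from 170.7 Mb, DKO1, DKO2 and DKO3 were at 0.855, 0.777 and 0.765, all below the 0.931 to 1.13 of the 9 columns, with DKO3 lowest. The most likely position of the fall, by Poisson likelihood on 1 kb bins, was chr6:170612001 in DKO1 and chr6:170614001 in DKO2, 2 kb apart. From there to chr6:170746000, reads were at 0.731 and 0.669 of what the stretch before it predicted. No protein-coding gene was annotated past these positions.

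Distal and proximal 6q differ in base composition in the reference sequence, which was not measured in the cells. Distal 6q had a mean GC content of 39.1 % against 37.1 % in proximal 6q and 40.9 % over all bins, 8.53 CpG per kb against 6.40 and 9.83, and 4.39 protein-coding genes per Mb against 2.94 and 7.04. A G4 motif, here 4 runs of 3 or more G with loops of up to 7 bases on either strand, was found in 6.97 % of distal, 5.81 % of proximal and 9.69 % of all bins. Distal bins with the motif had a higher mean value than distal bins without it in all 12 columns, by 1.03-fold in DKO1 to 1.26-fold in DKO2. Over all bins the same ratio ran from 1.08 in DKO1 to 1.41 in DKO2, and in proximal 6q from 0.992 in MU3 to 1.22 in DKO2. Bins with and without the motif were not compared at equal GC content.

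The value moved with GC content in all columns. In distal 6q, bins of 45 % GC or more had a mean value 1.86 to 3.83 times that of bins below 36 % GC, with DKO2 highest and MU2 lowest. Over the 75 distal 1 Mb windows, the mean relative value of the 9 columns other than DKO correlated with GC content at r = 0.916, a description across windows. Compared within 20 strata of GC content, the ratio of distal to proximal 6q was 1.21 in DKO1 and 1.31 in DKO2, and 1.04 to 1.09 in the other 10 columns including DKO3. Within these strata DKO1 no longer lay beside MU1. The contrast of this pair chose the region, so these ratios are a description, and what raised them was not tested.

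The 3 comparisons that leave out the DKO columns asked whether loss of a single glycosylase moves distal 6q. The distal to proximal ratio of the value was higher in MUTYH-/ than in WT by 0.00960 (exact two-sided permutation p = 1, adjusted p = 1 over 3 comparisons) and higher in OGG1-/ than in WT by 0.0457 (exact permutation p = 0.1, adjusted p = 0.3). OGG1-/ and MUTYH-/ differed by 0.0361 (exact permutation p = 0.6, adjusted p = 0.9). With 3 columns against 3 the smallest p is 0.1, so none could have passed. The OGG1-/ columns were all above the WT columns, but within GC strata OGG1-/ was lower than WT (difference -0.00427, exact permutation p = 0.7), and with the other chromosomes as reference it was lower too (difference -0.0310, exact permutation p = 0.1).

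Single windows and genes of distal 6q were also compared for the single knockouts. By limma on relative values, 0 of 750 distal windows of 100 kb passed an adjusted p of 0.05 in MUTYH-/ or in OGG1-/ against WT, and 0 of 28555 windows of the genome did (0 % in both). At an unadjusted p under 0.05 there were 23 distal windows in MUTYH-/ (3.07 %, against 4.18 % of all windows) and 34 in OGG1-/ (4.53 %, against 5.24 %). The median difference from WT over distal windows was -0.0167 in MUTYH-/ and -0.0354 in OGG1-/, against 0 and -0.00557 over all windows. With values centred in 20 strata of GC content these medians were -0.0119 and -0.00637, against -0.00161 and 0.000497 over all windows. Shares near the background are no result about distal 6q.

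The same fit of DKO against WT called 0 distal windows (0 % of all windows), with 156 of 750 at an unadjusted p under 0.05 beside 4.99 % of all windows. Without DKO3 it called 1 of 750 (0.0035 % of all windows), and on log2 input reads it called 644 with DKO3 (14.4 % of all windows) and 745 without it (10.8 %). Nothing is read from these counts, since this contrast chose the region. Over distal windows the columns of DKO had a median SD of 0.210, against 0.118 in WT, 0.145 in MUTYH-/ and 0.119 in OGG1-/. This SD was taken over distal windows alone. Whether the wider spread of DKO is particular to them was not tested.

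Of 17294 gene bodies with 5 or more bins, 303 lay in distal 6q. By limma, 0 of them passed in MUTYH-/, OGG1-/ or DKO against WT (0 % of all gene bodies in each). At an unadjusted p under 0.05 there were 10 in MUTYH-/ beside 4.36 % of all gene bodies, 8 in OGG1-/ beside 4.96 %, and 45 in DKO beside 5.08 %. Taken column by column, 167 of the 303 distal gene bodies were above all 9 other columns in DKO1 and 166 in DKO2, but 40 in DKO3. The shares over all gene bodies were 8.6 %, 10.6 % and 7.07 %, and in proximal 6q 22, 15 and 11 of 89 genes were. These counts describe the choice of the region.

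A pair of short stretches were high in single columns. The arm was scanned in 50 kb windows, relative to the median of the 12 columns and a running median, for 3 or more adjacent windows over 1.2. The scan also ran for low windows, and on 6q high stretches alone are given. In distal 6q there were 2 high stretches, in proximal 6q none, and on all chromosomes other than 6 there were 19 over the 12 columns. The scan was chosen after the values had been seen.

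In WT3, chr6:108648001-109016000 (368 kb) had 1.4 times the OG reads and 1.44 times the input reads that the surroundings predicted. It holds all of ARMC2, exons 2 and 3 of the 3 exons of FOXO3, a transcription factor of the stress response, and exons 2 to 10 of the 10 exons of SESN1, which limits oxidative stress and growth signalling. The mean value there was 13.2 in WT3 against 9.39 and 8.77 in WT1 and WT2. MU1 and DKO2 had means of 13.0 and 14.1 without such a rise over their own flanks.

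In DKO3, chr6:106907001-107237000 (330 kb) had 1.43 times the OG reads and 1.45 times the input reads. It holds all of CD24, MTRES1 and BEND3 and the last 4 of the 8 exons of PDSS2, which helps to make coenzyme Q. The mean value was 19.5 in DKO3 against 12.4 in DKO1 and 18.2 in DKO2. The 2 stretches have nearly the same size of change and do not overlap, and DKO1 and DKO2 had neither, with input reads from 99.4 % to 107 % of their flanks in both.

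**Figure D3:**
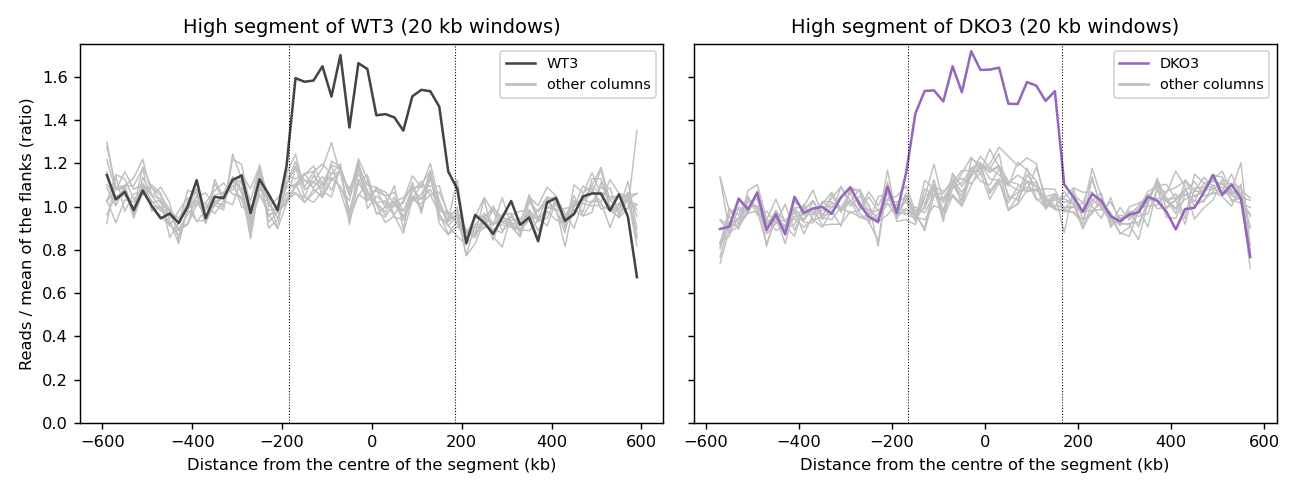
OG plus input reads in 20 kb windows across the high stretches of WT3 (left) and DKO3 (right), as a ratio to the mean of the flanks, by distance from the centre, with dotted lines at the ends. Between the ends the named column lies near 1.5 and all other columns (grey) stay near 1, DKO1 and DKO2 among them.

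Named genes of distal 6q were grouped by role, in lists chosen with earlier results of these data known. Of the genes listed 43 are given, and CCN2 had too few bins. By limma 0 of the 43 passed in MUTYH-/ or OGG1-/ against WT, with 1 and 0 at an unadjusted p under 0.05. The median difference from WT over the lists was 0.0365 in MUTYH-/ and -0.0341 in OGG1-/, against 0.0036 and 0.031 over all gene bodies. Over the gene bodies of distal 6q it was 0.0013 and -0.0257. In input reads relative to the 9 columns, 42 of the 43 genes in DKO1 and 43 in DKO2 were above the range of those columns, and 13 in DKO3. Over all gene bodies the shares were 10.3 %, 10.2 % and 9.51 %, and nothing is read from these counts, since the contrast of DKO1 and DKO2 chose the region.

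Over all 303 distal gene bodies the median input was 1.35 in DKO1, 1.37 in DKO2 and 1.01 in DKO3, so the medians of the lists below are not particular to a role. Among the 10 genes of genome stability the median input was 1.32 in DKO1, 1.32 in DKO2 and 1.02 in DKO3. REV3L, the catalytic subunit of the translesion DNA polymerase zeta, stood at 1.18, 1.29 and 0.98. SHPRH, a ubiquitin ligase of the tolerance of damaged DNA, stood at 1.43, 1.503 and 1.00, and MMS22L, which acts in repair of stalled replication forks, at 1.204, 1.24 and 1.06. MMS22L lies 2.14 Mb, REV3L 16.3 Mb and SHPRH 50.9 Mb past the boundary, and the levels rose in that order in DKO2 but not in DKO1, where MMS22L was above REV3L. Relative deposited values of these genes were less even, and REV3L was at 1.09 in DKO1 and 0.78 in DKO2 beside 0.80 to 0.95 in the 9 columns.

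Among the 8 genes of redox and peroxisome function the medians were 1.36, 1.34 and 1.02. SOD2, the superoxide dismutase of mitochondria, had 1.35, 1.32 and 0.99, with relative values of 1.47, 1.48 and 0.99 beside 0.86 to 1.22 in the 9 columns. FOXO3 had 1.17, 1.24 and 0.97, and it was the gene that DKO1 did not have above the 9 columns, whose input reached 1.18. PDSS2 was at 1.23, 1.22 and 1.13, where DKO3 was above the range of the 9 columns (0.97 to 1.04). The high stretch of WT3 covers 36.8 kb of the 125 kb of FOXO3, and that of DKO3 covers 84.4 kb of the 307 kb of PDSS2.

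Among 16 genes of cancer and signalling the medians were 1.38, 1.42 and 1.01. ESR1, the estrogen receptor, had 1.396, 1.49 and 1.06, and ARID1B, a subunit of a chromatin remodeler, 1.36, 1.36 and 1.02. MYB, a transcription factor of blood precursors, differed between the pair with 1.24 and 1.48, and its relative value was 2.27 in DKO1, 1.17 in DKO2 and 1.65 in DKO3, beside 0.84 to 1.56 in the 9 columns. DKO3 was thus above that range in the value, while its input of 0.914 was not. Among the 43 named genes, the smallest p in MUTYH-/ was that of CCNC, a cyclin of the mediator complex. Its relative value was 0.970 against 0.470 in WT (difference 0.50, SE 0.22, adjusted p = 0.9999 by limma). The deposited value of CCNC was 1.24 in WT1 against 4.49 and 5.21 in WT2 and WT3.

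The 9 long genes, which span many bins, had medians of 1.38, 1.41 and 1.04. UTRN, for a muscle cytoskeleton protein, had 1.43, 1.45 and 1.00, and GRIK2, for a glutamate receptor subunit nearer to the boundary, 1.18, 1.22 and 1.04. In the 14 measured genes of proximal 6q, of 15 listed, the medians were 1.07, 1.11 and 1.04, with BACH2, a transcription factor of B cells, at 1.12, 1.15 and 1.03.

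**Figure D4:**
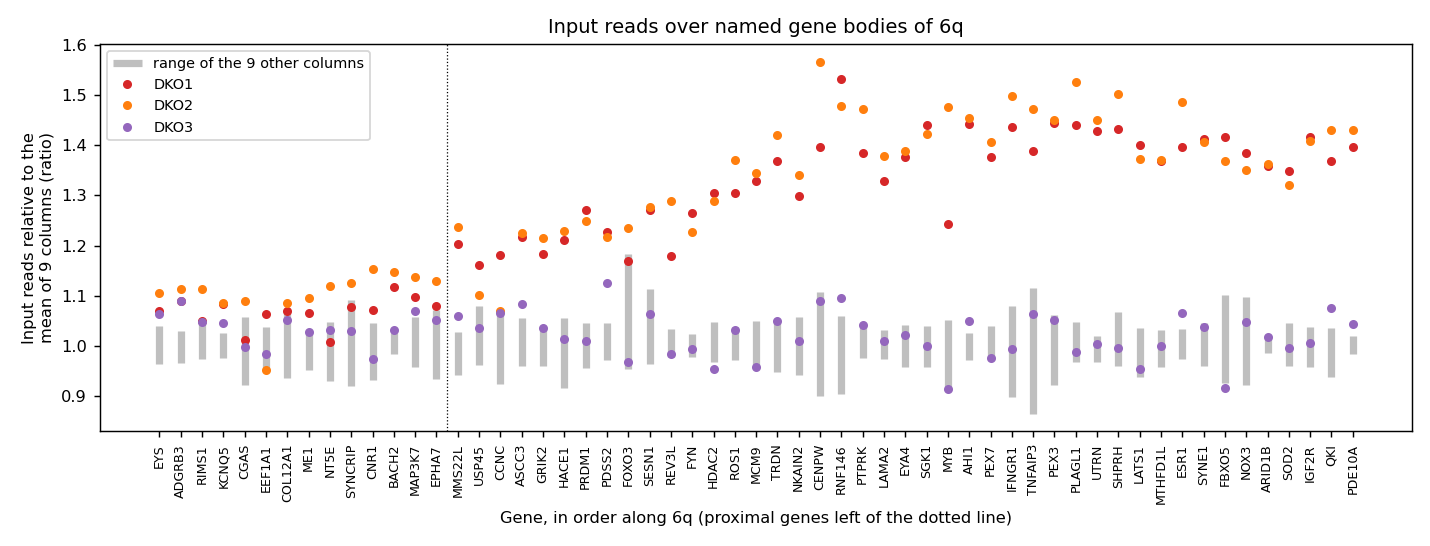
Input reads over the bodies of the named genes, relative to the mean of the 9 columns other than DKO, in order along 6q, with the range of those columns as grey bars and proximal genes left of the dotted line. DKO1 and DKO2 move up along the arm from medians of 1.07 and 1.11 in proximal genes to values near 1.4, and DKO3 stays near 1.

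The highest bins of distal 6q lay near its end. The bin with the highest mean relative value, 4.48, was chr6:168614001-168615000 in SMOC2, a gene for a matrix protein, with a lowest, median and highest value of 5.73, 39.8 and 67.4 over the columns. The next bin of the same gene had 3.70. Input was also high in the first, with a mean of 98.4 reads, and DKO3 was its lowest column. The other 3 of the highest 5 were intergenic, nearest to THBS2, GPR31 and EZR.

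Of the 5 highest bins, 1 held a G4 motif, at chr6:167203001-167204000, with values from 0.277 to 75.9 and a median of 21.9. Its motif is the sequence printed above. The lowest and the highest column there were both WT, namely WT2 and WT3.

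The 5 lowest bins had mean relative values from -1.25 to -0.960 and GC contents from 31.2 % to 41.8 %, against 50.4 % to 68.5 % in the 5 highest. The lowest was chr6:150477001-150478000, 71.5 kb from IYD, with values from -28.0 to 0.037. In the highest bin DKO1 and DKO2 had 17.9 and 27.6 and were not extreme, but DKO2 was the highest of all columns in the second highest bin (76.0) and the lowest in the third and the fourth lowest bins (-37.8 and -23.3).

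In windows of 1 Mb, the highest of the 9 columns other than DKO started at 158 Mb, with a relative value of 1.31 ± 0.0945 (SD over 9 columns) and 8 protein-coding genes, and the lowest at 102 Mb, with 0.583 ± 0.102 and 0 genes. DKO1 and DKO2 stood at 1.58 and 1.72 in the first and at 0.806 and 0.540 in the second. In the gene-poor window DKO2 was thus below the mean of the 9 columns although its input was raised, and DKO1 was above it. The 5 highest windows had a GC content of 42.0 % to 44.7 % and the 5 lowest of 34.2 % to 36.4 %.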

How the data were processed

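OG-seq was analysed in 12 columns of 1 deposited table. Per the methods and the submitters' processing notes, the authors trimmed adapters with cutadapt 2.8, mapped reads to GRCh38 with Bowtie2 2.3.5.1, marked duplicates, counted reads in 1 kb bins with bedtools, removed bins in blacklisted regions and subtracted input scaled by signal extraction scaling, so each deposited value is a score in OG reads that can be below 0. Scaling and subtraction leave a higher DNA content of a region in the value.

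The factors of 2 input runs and the whole OG and input reads were solved from the fractional parts of the values, a step tested on simulated data. Genes and exons came from GENCODE v44, and base content from the hg38 sequence, whose chromosome lengths held all bins. Fits across 100 kb windows and gene bodies (5 or more bin centres in the gene) used limma 3.58.1 in R 4.3.3 on values divided by the column mean, with Benjamini-Hochberg adjustment over the genome. All 12 columns were in the same fit and shared a spread estimate per window or gene body. Single values were compared by exact permutation tests. The members, gene lists and tests were chosen with earlier results of these data known, and the profile along 6q, the scan for short stretches (of which those of high reads are given) and their ends were chosen later, with the values known. Named genes were those of the lists, the 5 highest and lowest distal bins and 1 Mb windows, and the windows at the boundary. Alternatives changed the summary, the reference, the boundary, the scaling, the filter, the GC correction and the columns used. At 21.0 to 40.2 OG and 27.7 to 35.8 input reads per bin, counting error is large in single bins and small in regions. A gene of the lists and results that rest on it are not reported here.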

Additional observations from a re-analysis of the deposited data

How the results depend on the processing

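The ratio of distal to proximal 6q in DKO1 and DKO2, as a multiple of that in the other 10 columns, was 1.196. It was 1.32 with the other chromosomes as reference and 1.28 with 6p as reference, where the proximal part of the rise is not in the reference. Under the other 7 alternatives it moved by less than 0.0424, the SD of the 10 columns divided by their mean in the reported setting. The largest of these moves was to 1.237, in input reads relative to the GC expectation. The genotype comparisons had no stable direction. MUTYH-/ minus WT became -0.0118 against the other chromosomes, -0.0153 in OG reads and -0.0155 in input reads. OGG1-/ minus WT became -0.00427 within GC strata, -0.0310 against the other chromosomes, -0.0147 in OG reads and -0.0245 in input reads. OGG1-/ minus MUTYH-/ became -0.00661, -0.0192 and -0.00905 within GC strata, against the other chromosomes and in input reads. Without 1 column, MUTYH-/ minus WT ran from -0.0403 (without MU1) to 0.0362 (without MU2), OGG1-/ minus WT from 0.0261 (without OG2) to 0.0576 (without OG1) and OGG1-/ minus MUTYH-/ from 0.00951 (without MU2) to 0.0860 (without MU1), and without WT2 the first was -0.000608. Counts of distal windows and gene bodies called in MUTYH-/ or OGG1-/ stayed at 0 under all alternatives. No alternative left out all DKO columns, whose spread entered the error of these fits. DKO against WT, the contrast that chose the region, called 1 of 750 distal windows without DKO3 (0.0035 % of all windows) and 0 without any other column. It called 644 on log2 input reads (14.4 % of all windows) and 745 on those without DKO3 (10.8 %), against 0 as reported, and nothing is read from these counts. No paired analysis was possible because the columns carry no replicate or clone name. Bins of 1 kb set the resolution of all ends.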
